A study of Mus musculus with 13 samples.

Results

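General capillary cells are the endothelial cells of the alveolar wall that act as progenitors for the capillary bed, and 10 genes known to be expressed in them are described here: Cd93, Cd34, Gpihbp1, Lmo2, Ptprb, Plvap, Tspan7, Hilpda, Cxcl12 and Sema3c. They were taken by symbol from the 32544 gene symbols of the count table, and all 10 were among the 12496 genes that passed the filter on low counts. In hyperoxia Cd93 and Cd34 rose, Gpihbp1, Lmo2 and Ptprb fell, and the other 5 had lower mean levels without passing the test. Whole lung was measured, so changes in capillary cell numbers, RNA per cell or other cells cannot be told apart in any value given here.

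The 13 Quant-seq libraries were made from perfused lung of WT C57BL/6J male mice that were 7 weeks old when bought. Exposure lasted 5 days, at 21% oxygen for 7 libraries (normoxia) and at 80% for the other 6 (hyperoxia). Library totals ran from 1607111 to 4540288 counts, and a floor of 3 counts corresponded to 0.656 to 1.84 CPM (counts scaled to a common library size) across the libraries. Whether each library stands for a separate mouse was not given in the labels, so the p-values measure the spread between these samples. Levels are CPM after TMM scaling, given as mean ± SD over 7 normoxic and 6 hyperoxic libraries throughout. Changes are log2 fold changes of hyperoxia over normoxia with their standard errors (SE) from edgeR's quasi-likelihood test, whose p-values were adjusted by the Benjamini-Hochberg method over all genes tested. A gene was called at an adjusted p under 0.05.

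One library stood apart from the rest. The correlation of log2 CPM between hyperoxia 1 and the other libraries was 0.721 to 0.833, against 0.854 to 0.967 among the other libraries. Its mean log2 CPM over 22 pan-endothelial genes was 5.994, where the other 12 libraries ranged from 6.627 to 7.113. Results of the members are given with and without it where it changed them, and the cause of its distance from the others was not tested.

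Alveolar capillaries hold 2 kinds of endothelial cell. Aerocytes are large, thin cells that lie against the alveolar epithelium, while general capillary cells control vascular tone, divide after injury and can give rise to aerocytes. The genes of general capillary cells described here serve the surface of the vessel wall (Cd93, Cd34), lipid handling (Gpihbp1, Hilpda), the diaphragms of fenestrae and caveolae (Plvap), the restraint of receptor tyrosine kinases (Ptprb), secreted guidance of other cells (Cxcl12, Sema3c), transcription (Lmo2) and the organisation of membrane proteins (Tspan7).

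In the RefSeq promoter table of build GRCm38.p6, entries were matched for Cd34, Cxcl12, Hilpda, Sema3c and Tspan7. The 250 bases before the Cd34 start site (chr1:194938571-194938820, plus strand) are shown because Cd34 is the member that rose among those matched. Capitals mark the ETS core GGAAG, read here on the opposite strand, which endothelial genes are known for.

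Cd34: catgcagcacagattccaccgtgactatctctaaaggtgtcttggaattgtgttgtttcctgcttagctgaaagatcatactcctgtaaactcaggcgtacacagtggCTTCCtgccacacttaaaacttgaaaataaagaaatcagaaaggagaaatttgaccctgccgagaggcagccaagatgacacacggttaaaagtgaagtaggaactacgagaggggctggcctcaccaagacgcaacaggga

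Searched on both strands, this window held 1 ETS core, and 64.1% of the 32851 promoter windows of the same length held at least 1. It held no AGATAA (the GATA core, in 9.99% of windows) and no CANNTG (the E-box, in 66.2%), the letters that the LMO2 complex is known to bind. A match is a description of letters, and its absence says only that these letters are not in this window.

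Hilpda has 2 start sites in the same table, and the sites before its second start are shown because Hilpda is named for its induction by low oxygen. The cores ACGTG and GCGTG, which hypoxia-inducible factors are known to bind, were searched on both strands. The 250 bases before the second start held 3 of them and the 250 bases before the other start held 0, against at least 1 in 38.6% of all promoter windows. Of the other members matched, the window of Sema3c held 2, that of Tspan7 1, and those of Cd34 and Cxcl12 0. The 3 cores of Hilpda begin 111, 43 and 8 bases before its second start. They are given with 10 bases on each side, on the plus strand, the core in capitals (chr6:29272505-29272529, chr6:29272573-29272597 and chr6:29272608-29272632).

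Hilpda site 1: accgcgagccGCGTGctttccgtga
Hilpda site 2: tggccagcggACGTGccccagggcg
Hilpda site 3: ggttcggtacGCGTGcgcagtctcc

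The comparison of hyperoxia with normoxia asks which transcripts of the lung change after 5 days at high oxygen. Across all 12496 genes, 2819 (22.6%) were called, 11.8% higher and 10.8% lower. Of the 10 general capillary genes, 2 were called higher and 3 lower. Their median log2 fold change was -0.70, beside -0.03 for all genes tested, and 8 of the 10 lay below 0. With the study's further limit of 1.5 on the size of the log2 fold change, which 3.91% of all genes passed, Cd93 and Cd34 remained higher and Gpihbp1 and Lmo2 lower. Gpihbp1 lay close to this limit and missed it in some alternative fits, the farthest being those without hyperoxia 1 (log2 fold change -1.38) and with transcript length and GC content corrected for (-1.37). The groups did not overlap in CPM for the 5 called members and overlapped for the other 5, where 10.8% of all genes did not overlap. Without hyperoxia 1 the count of members called lower went from 3 to 6, with Sema3c, Hilpda and Cxcl12 added, and the count called higher stayed at 2. More of all genes were called in that fit too, 3633 of 12752 (28.5%), with 15.2% higher and 13.3% lower.

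**Figure D1:**
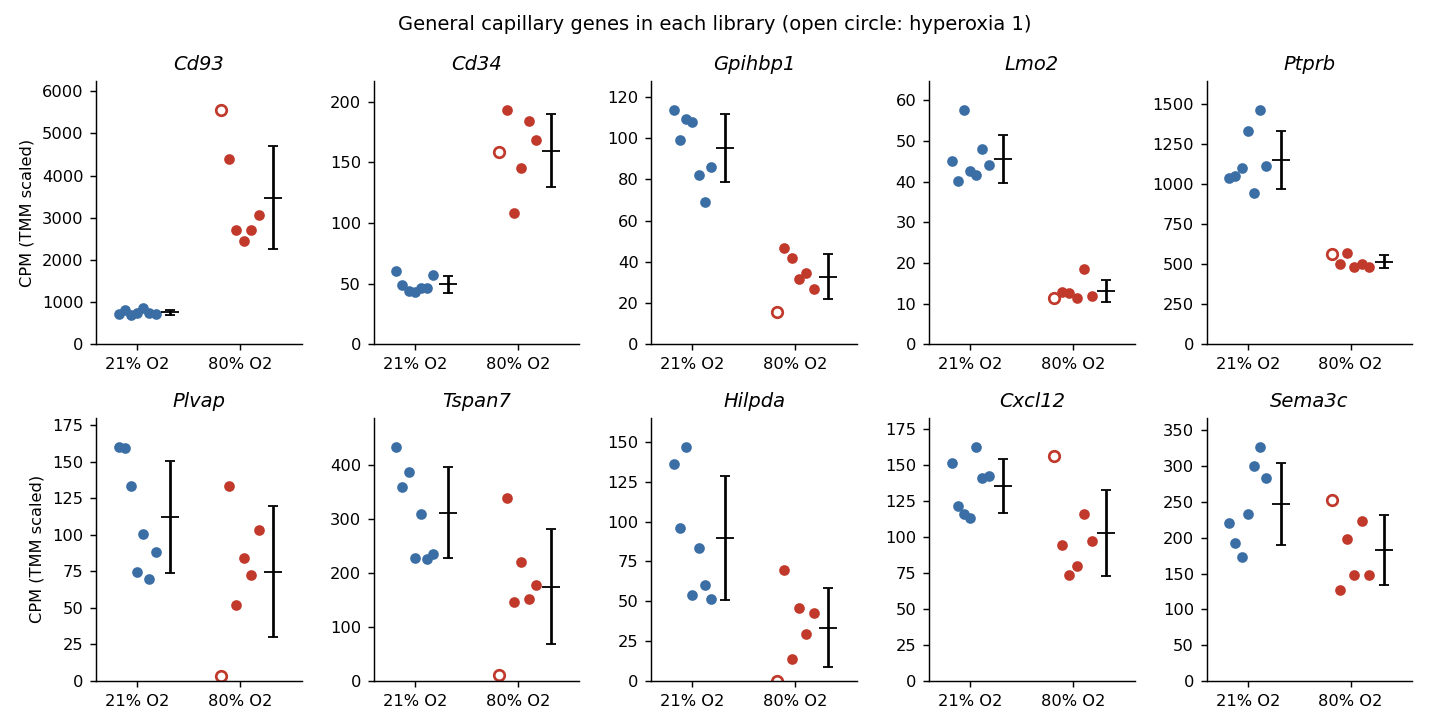
CPM after TMM scaling (y axes, linear from 0, 1 scale per gene) of each general capillary gene in each library at 21% or 80% oxygen (x axes). Points are libraries, the open circle is hyperoxia 1, and the bar with caps is the mean ± SD of 7 or 6 libraries. The upper row holds the 5 genes whose groups do not overlap, and the open circle lies at the bottom of the panels of Plvap, Tspan7 and Hilpda.

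Of the surface glycoproteins, Cd93 encodes a C-type lectin domain receptor that binds the matrix protein multimerin-2, and lies on chromosome 2 (148436640 to 148443563, minus strand, GRCm38). Its lowest, median and highest CPM were 695, 733.4 and 854 in normoxia and 2449, 2885 and 5550 in hyperoxia. Every hyperoxic library was above every normoxic library, and the highest value was that of hyperoxia 1. The mean rose 4.61-fold, from 754.9 ± 59.2 to 3478 ± 1231 CPM (log2 fold change 2.20, SE 0.19, adjusted p = 1.66e-06). The spread was wider in hyperoxia, with a coefficient of variation of 35.4% against 7.84% in normoxia. Without hyperoxia 1 the hyperoxic mean was 3064 ± 779 CPM (n = 5).

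Cd34 encodes a sialomucin of endothelial and progenitor cells and lies on chromosome 1 (194938819 to 194961279, plus strand). It ranged from 42.72 through a median of 46.56 to 60.11 CPM in normoxia and from 108.4 through 163.7 to 193.1 CPM in hyperoxia. No libraries overlapped, and hyperoxia 1, at 158.7 CPM, lay inside the range of its group. The mean rose 3.24-fold, from 49.31 ± 6.68 to 159.8 ± 30.4 CPM (log2 fold change 1.70, SE 0.15, adjusted p = 1.82e-06).

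From the list of relatives and binding partners of CD93 and CD34, 9 genes were tested, of which 2 were called higher and 3 lower, with a median log2 fold change of -0.41, or -0.15 without hyperoxia 1. Mmrn2, which encodes the CD93 ligand multimerin-2, rose from 76.9 ± 15.2 to 308 ± 111 CPM (log2 fold change 2.00, SE 0.23, adjusted p = 1.69e-05). Selp, the leukocyte adhesion receptor P-selectin, rose by 1.88 on the log2 scale. The members of the CD93 family Clec14a and Thbd, the thrombomodulin gene, fell by 1.00 and 1.03. The relatives of Cd34, Podxl and Emcn, had log2 fold changes of -0.59 and 0.31 and were not called (adjusted p = 0.227 and 0.204).

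Of the lipid genes, Gpihbp1 encodes the capillary protein that carries lipoprotein lipase to the vessel lumen, and lies on chromosome 15 (75596628 to 75599481, plus strand). Its lowest, median and highest CPM were 69.13, 98.88 and 113.5 in normoxia and 15.55, 33.08 and 46.48 in hyperoxia. Every hyperoxic library was below every normoxic library, and hyperoxia 1 was the lowest. The mean was 2.9-fold lower in hyperoxia, at 32.8 ± 10.98 CPM against 95.3 ± 16.6 (log2 fold change -1.53, SE 0.21, adjusted p = 0.000119). Without hyperoxia 1 the hyperoxic libraries averaged 36.2 ± 7.83 CPM, with the lowest at 26.9.

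Among the 9 tested genes of lipolysis and fatty acid uptake, 2 were called higher and 3 lower, with a median log2 fold change of -0.38, or -0.19 without hyperoxia 1. Lpl, the lipase that GPIHBP1 binds, was at 403 ± 36.3 CPM in normoxia and 446 ± 189 in hyperoxia and was not called (log2 fold change 0.15, SE 0.21, adjusted p = 0.665). Angptl4, a secreted inhibitor of the lipase, rose from 38.9 ± 16.7 to 237 ± 67.0 CPM (log2 fold change 2.61, SE 0.29, adjusted p = 1.61e-05). The fatty acid binding protein gene Fabp5 fell by 0.97 and the fatty acid transporter gene Cd36 by 0.62 on the log2 scale (adjusted p = 0.000156 and 0.0234). Sel1l, an endoplasmic reticulum protein needed for lipase export, rose by 0.59. The calls of Sel1l and Cd36 were lost in 6 and 7 of the 23 alternative fits.

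Hilpda encodes a lipid droplet protein that inhibits the triglyceride lipase ATGL, and lies on chromosome 6 (29272488 to 29275446, plus strand). In normoxia it ranged from 51.15 through 83.32 to 146.8 CPM, and in hyperoxia from 0 through 36.06 to 69.53. The groups overlapped, and the 0 was hyperoxia 1, where no read was counted and the floor of 3 counts stood at 1.61 CPM. The mean was 89.6 ± 39.1 CPM in normoxia and 33.5 ± 24.7 in hyperoxia (log2 fold change -1.40, SE 0.54, adjusted p = 0.0723). Without hyperoxia 1 the hyperoxic mean was 40.2 ± 20.7 CPM and the gene was called lower, with a log2 fold change of -1.14 and an adjusted p of 0.0192 by the same test.

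Of 11 tested lipid droplet genes, 1 was called higher and 1 lower, with a median log2 fold change of -0.30. Plin2, which coats lipid droplets, rose from 116 ± 16.4 to 511 ± 333 CPM (log2 fold change 2.14, SE 0.29, adjusted p = 8.19e-05). Pnpla2, the gene of ATGL, had a log2 fold change of 0.38 and was not called (adjusted p = 0.111), and the monoglyceride lipase gene Mgll fell by 0.71. G0s2, the other known inhibitor of ATGL, was at 28.9 ± 11.4 CPM in normoxia and 12 ± 7.55 in hyperoxia (adjusted p = 0.072). Without hyperoxia 1, 2 genes of the list were called higher and 2 lower and the median was -0.14, and the call of Mgll was lost in 4 of the 23 alternative fits.

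Since Hilpda is induced by low oxygen, 12 tested genes with the same known response were set beside it. Of these, 3 were called higher and 2 lower, with a median log2 fold change of -0.07. The glucose transporter gene Slc2a1 rose by 1.24, Higd1a by 0.74 and the glycolytic enzyme gene Pgk1 by 0.82 on the log2 scale, while the prolyl hydroxylase subunit gene P4ha1 fell by 0.62 and the kinase gene Pdk1 by 0.68. Vegfa was at 387 ± 129 and 389 ± 141 CPM in the respective groups (adjusted p = 0.995). The call of Pgk1 was lost in 15 of the alternative fits and that of Higd1a in 6.

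Plvap encodes the protein that forms the diaphragms of endothelial fenestrae and caveolae and lies on chromosome 8 (71497765 to 71511752, minus strand). Its values were 69.96, 100.5 and 160.2 CPM (lowest, median, highest) in normoxia and 3.217, 78.26 and 133.8 in hyperoxia. The groups overlapped, and the low end of hyperoxia was set by hyperoxia 1, with 6 counts. The mean was 112 ± 38.5 CPM in normoxia and 74.9 ± 44.8 in hyperoxia (log2 fold change -0.58, SE 0.45, adjusted p = 0.397). Without hyperoxia 1 the hyperoxic mean was 89.2 ± 31.1 CPM and the log2 fold change -0.32.

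Of 9 tested genes of caveolae, 2 were called higher and 1 lower, with a median log2 fold change of -0.10. Cav1, the main coat protein of endothelial caveolae, had a log2 fold change of -0.43 (SE 0.33, adjusted p = 0.388). Pacsin2, which shapes the caveolar neck, rose by 0.87 on the log2 scale (adjusted p = 0.00249). Of the cavin genes, Prkcdbp (cavin-3) rose by 0.68, Ptrf (cavin-1) fell by 0.89 and Sdpr (cavin-2) had a log2 fold change of -0.17 (adjusted p = 0.0114, 0.0257 and 0.622). The call of Ptrf was lost in 4 of 22 alternative fits. Without hyperoxia 1, 2 were called higher and 3 lower.

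Tspan7 encodes a tetraspanin, a membrane protein that gathers other membrane proteins into domains, and lies on chromosome X (10485158 to 10596605, plus strand). It ranged from 226.9 through 309.4 to 433.8 CPM in normoxia and from 11.79 through 164.9 to 340.1 CPM in hyperoxia. The groups overlapped, and hyperoxia 1 was again the lowest, with 22 counts. The mean was 312 ± 84.7 CPM in normoxia and 175 ± 107 in hyperoxia (log2 fold change -0.83, SE 0.43, adjusted p = 0.188). Without hyperoxia 1 it was 207.5 ± 79.8 CPM in hyperoxia and the log2 fold change was -0.57.

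Among 24 other tetraspanin genes, 9 were called lower and 0 higher by the same test (11 and 1 at an unadjusted p under 0.05, 9 and 0 by both DESeq2 and limma-voom), with a median log2 fold change of -0.48. Tspan13 fell from 391 ± 43.9 to 161 ± 19.9 CPM (log2 fold change -1.28, SE 0.13, adjusted p = 5.38e-06). Tspan12, which supports Norrin signalling in endothelium, fell by 1.597, and Cd37, a tetraspanin of B cells, by 2.11. The epithelial genes Tspan1 and Tspan8 fell by 0.88 and 0.78. Without hyperoxia 1, 10 of the 24 were called lower and 3 higher. The calls of Tspan8, Tspan15, Tspan18 and Tspan33 were lost in 4, 11, 13 and 17 of the 23 alternative fits, and with the length and GC correction 7 of the 24 were called lower, not all of them among the 9.

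Ptprb encodes VE-PTP, the endothelial phosphatase that dephosphorylates the receptor TIE2 and VE-cadherin, and lies on chromosome 10 (116275523 to 116389535, plus strand). Its lowest, median and highest CPM were 942.3, 1100 and 1458 in normoxia and 479.3, 497.1 and 567 in hyperoxia. All hyperoxic libraries lay below all normoxic libraries, and hyperoxia 1, at 559.7 CPM, was inside the range of its group. The mean was 2.23-fold lower in hyperoxia, at 514 ± 39.3 CPM against 1146 ± 181 (log2 fold change -1.16, SE 0.13, adjusted p = 2.3e-05).

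In the list of TIE2 pathway genes and substrates of VE-PTP, 9 genes were tested, 2 called higher and 3 lower, with a median log2 fold change of -0.35. Tek, the gene of TIE2, fell from 126 ± 20.6 to 65.7 ± 12.4 CPM (log2 fold change -0.94, SE 0.16, adjusted p = 0.000566), and its orphan partner Tie1 fell by 0.70. Angpt2, the context-dependent antagonist of TIE2, rose from 27.5 ± 4.56 to 81.9 ± 21.9 CPM (log2 fold change 1.57, SE 0.18, adjusted p = 1.92e-05). Svep1, a matrix protein that binds TIE1, rose by 0.56, and Angptl2, an angiopoietin-like secreted protein, fell by 1.53. Cdh5, the gene of VE-cadherin, was at 219 ± 19.8 and 249 ± 29.4 CPM and was not called (adjusted p = 0.307).

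Of the secreted factors, Cxcl12 encodes the chemokine that attracts CXCR4-bearing cells, and lies on chromosome 6 (117168535 to 117181367, plus strand). It was between 113 and 162.4 CPM in normoxia, with a median of 141, and between 73.31 and 156 CPM in hyperoxia, with a median of 95.7. The overlap was due to 2 hyperoxic libraries, hyperoxia 1 at 156 CPM and hyperoxia 5 at 115.7 CPM. The mean was 135 ± 18.8 CPM in normoxia and 103 ± 30.0 in hyperoxia (log2 fold change -0.40, SE 0.17, adjusted p = 0.11). Without hyperoxia 1 it was 92.1 ± 16.5 CPM in hyperoxia and the gene was called lower by the same test (log2 fold change -0.54, adjusted p = 0.00823).

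Of 6 tested genes that encode receptors, proteases or other proteins linked to CXCL12, 2 were called higher and 2 lower, with a median log2 fold change of 0.28. The receptor genes moved apart. Cxcr4, which signals, fell from 9.10 ± 3.37 to 1.89 ± 0.675 CPM (log2 fold change -2.29, SE 0.34, adjusted p = 2e-04), and Ackr3, which scavenges the chemokine, rose from 39.6 ± 4.75 to 203 ± 63.4 CPM (log2 fold change 2.36, SE 0.18, adjusted p = 4.26e-07). Dpp4, a protease that cleaves CXCL12, fell by 1.39, and Cxcl14, a chemokine reported to bind CXCR4, rose by 1.28 on the log2 scale.

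Sema3c encodes a secreted class 3 semaphorin and lies on chromosome 5 (17574281 to 17730268, plus strand). It ranged from 173.7 through 233.1 to 326.7 CPM in normoxia and from 127.3 through 173.3 to 252 CPM in hyperoxia. The groups overlapped, and hyperoxia 1 was the highest of its group. The mean was 247 ± 57.4 CPM in normoxia and 183 ± 49.2 in hyperoxia (log2 fold change -0.44, SE 0.19, adjusted p = 0.121). Without hyperoxia 1 it was 169 ± 39.9 CPM in hyperoxia and the gene was called lower by the same test (log2 fold change -0.53, adjusted p = 0.0408).

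Of 13 tested semaphorin receptors and relatives, 3 were called higher and 2 lower, with a median log2 fold change of -0.10, which turned to 0.05 without hyperoxia 1. Nrp1, a co-receptor of class 3 semaphorins that is also a gene of aerocytes, fell from 1222 ± 140 to 581 ± 186 CPM (log2 fold change -1.07, SE 0.20, adjusted p = 0.00105). Plxna2, a signalling receptor, rose from 92.8 ± 14.0 to 283 ± 32.2 CPM (log2 fold change 1.61, SE 0.13, adjusted p = 8.63e-07), and Plxna4 rose by 0.91. The receptor genes Plxnd1 and Nrp2 had log2 fold changes of -0.31 and -0.15 and were not called (adjusted p = 0.346 and 0.492). Sema3g, a semaphorin of arterial endothelium, fell by 1.29, while Sema3b rose by 0.63, a call that was lost in 12 of the alternative fits.

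Lmo2 encodes a bridging protein of transcription factor complexes in blood and endothelium, and lies on chromosome 2 (103957986 to 103981878, plus strand). Its lowest, median and highest CPM were 40.18, 44.01 and 57.56 in normoxia and 11.26, 12.16 and 18.44 in hyperoxia. Every hyperoxic library was below every normoxic library. The mean was 3.5-fold lower in hyperoxia, at 13.03 ± 2.73 CPM against 45.6 ± 5.84 (log2 fold change -1.80, SE 0.17, adjusted p = 2.4e-06), and the counts behind it were 21 to 59 per hyperoxic library.

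Of 11 tested genes of the LMO2 complex, 0 were called higher and 1 lower by the same test (1 and 2 at an unadjusted p under 0.05, 1 and 1 by DESeq2, by limma-voom and without hyperoxia 1), with a median log2 fold change of -0.37. The called gene was Ldb2, a LIM domain binding protein, which fell from 119 ± 17.3 to 71.1 ± 9.62 CPM (log2 fold change -0.74, SE 0.14, adjusted p = 0.0012). Its relative Ldb1 was at 14.4 ± 4.47 and 9.98 ± 5.09 CPM (adjusted p = 0.294), and Tal1, the helix-loop-helix partner, at 18.8 ± 4.31 and 21.0 ± 5.68 CPM (adjusted p = 0.672).

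**Figure D2:**
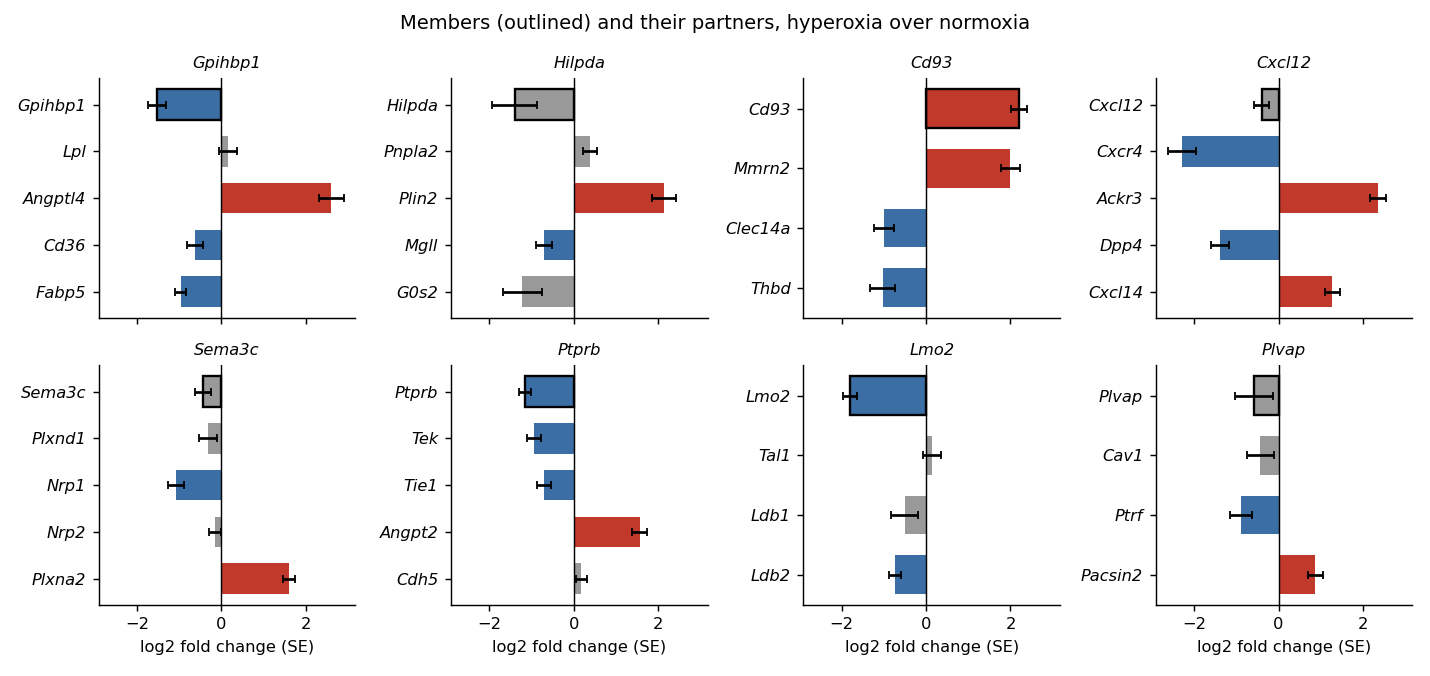
log2 fold change of hyperoxia over normoxia (x axes) of 8 general capillary genes (outlined, top of each panel) and genes of their ligands, receptors, enzymes or complex partners; error bars are SE. Red bars were called higher, blue bars lower and grey bars not called at an adjusted p under 0.05, and Cxcr4 and Ackr3 lie on opposite sides of 0.

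The members were also set against the level of endothelial transcripts in each library, by subtracting the mean log2 CPM of the 22 pan-endothelial genes. On this scale Cd93 was higher in hyperoxia by 2.34 and Cd34 by 1.87, and Gpihbp1 differed by -1.38 and Lmo2 by -1.57, each with no overlap between the groups. The difference for Ptprb was -0.95, and its groups overlapped through hyperoxia 1 alone. Without that library the differences were 2.05 for Cd93, 1.72 for Cd34, -1.33 for Gpihbp1, -1.68 for Lmo2 and -1.12 for Ptprb, and Ptprb ranged from 1.96 to 2.52 in hyperoxia and from 2.91 to 3.82 in normoxia. The pan-endothelial genes themselves did not move as 1 group: 5 of 22 were called higher and 6 lower, with a median log2 fold change of -0.39, against 6, 7 and -0.25 without hyperoxia 1. Eng and S1pr1 rose by 1.02 and 1.51, the adrenomedullin receptor gene Calcrl fell by 1.85, and the adhesion gene Pecam1 was at 2773 ± 862 and 1605 ± 1299 CPM (adjusted p = 0.198).

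**Figure D3:**
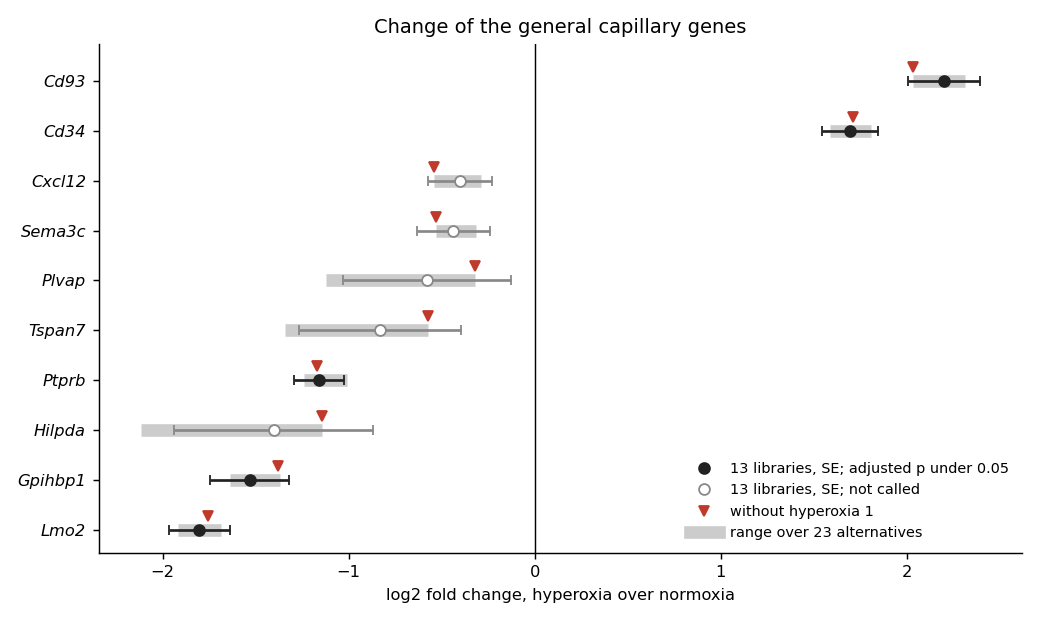
log2 fold change of hyperoxia over normoxia (x axis) of the 10 general capillary genes (y axis). Circles with SE bars are the fit over 13 libraries (filled where the adjusted p was under 0.05), triangles the fit without hyperoxia 1, and grey bands the range over the 23 alternative settings (22 for Plvap and Hilpda); no band reaches 0.

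The libraries carry letters B to M or O to S in their labels, whose meaning was not given. Within these sets (5 normoxic and 3 hyperoxic libraries, and 2 and 3), mean log2 CPM of the called members differed in 1 direction, by 2.41 and 1.90 for Cd93, 1.62 and 1.67 for Cd34, -1.68 and -1.30 for Gpihbp1, -1.83 and -1.72 for Lmo2, and -1.003 and -1.387 for Ptprb. For Plvap the differences were -2.01 and 0.12, so that its direction turned between the sets. For Tspan7 they were -1.98 and -0.35, and for Hilpda -3.49 and -0.51. Hyperoxia 1 belongs to the set B to M, and without it the differences in that set were -0.53 for Plvap, -0.59 for Tspan7 and -1.63 for Hilpda.

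Plvap, Tspan7 and Hilpda varied together within the groups. Pearson's r of their log2 CPM deviations from the group means over the 13 libraries was 0.984 to 0.986 between each pair, and 0.931 to 0.935 without hyperoxia 1. In normoxia the 3 genes had their 3 highest values in normoxia 1, 2 and 3, at 160.2, 159.3 and 133.8 CPM for Plvap, 433.8, 360.2 and 387.9 for Tspan7 and 136.3, 95.74 and 146.8 for Hilpda. Their deviations also followed those of the pan-endothelial mean (r = 0.944 to 0.95, and 0.783 to 0.826 without hyperoxia 1). Gpihbp1 had r of 0.761 to 0.833 with these 3 genes and 0.378 to 0.591 without hyperoxia 1. Ptprb and Sema3c, by contrast, had r of -0.595 and -0.60 with the pan-endothelial mean (-0.768 and -0.445 without hyperoxia 1). The points share libraries and their depth, so these values describe the libraries and carry no test.

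**Figure D4:**
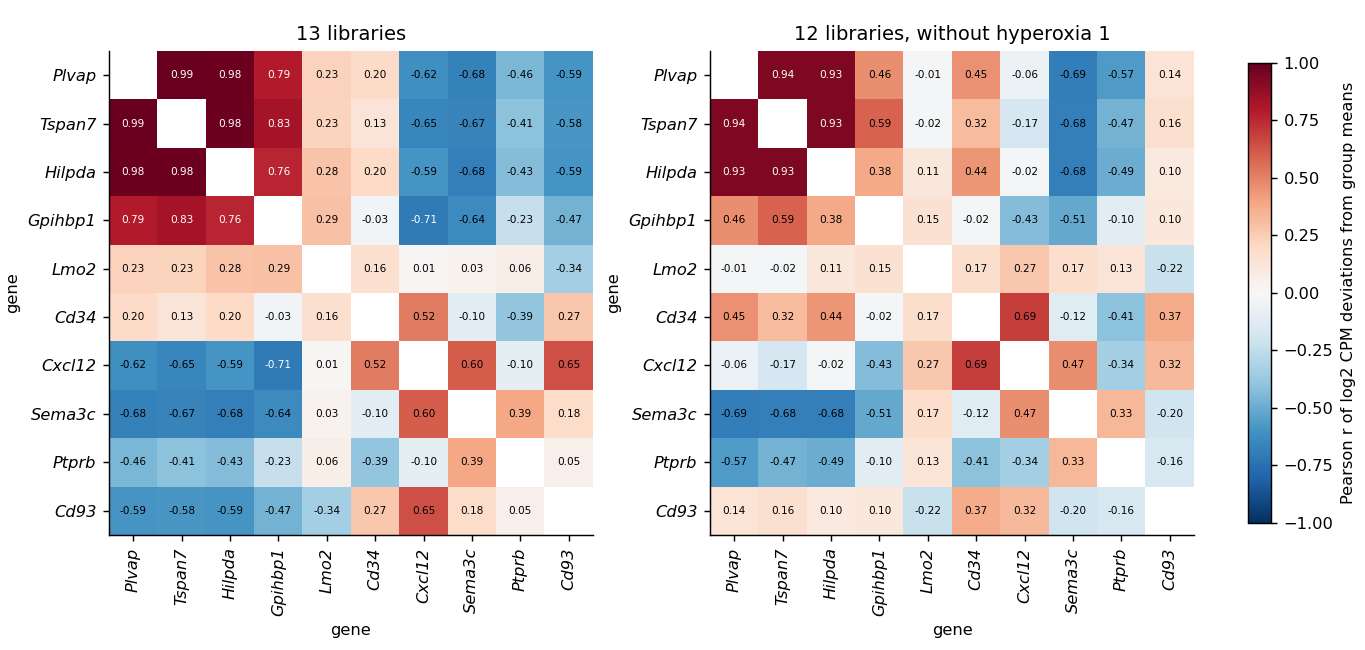
Pearson's r (colour and printed value) between the log2 CPM deviations from group means of each pair of general capillary genes, over all 13 libraries (left) and over 12 without hyperoxia 1 (right). Plvap, Tspan7 and Hilpda form a block with r of 0.984 to 0.986 on the left and 0.931 to 0.935 on the right.

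The protein-coding transcripts of Hilpda and Gpihbp1 are short, with median lengths of 820 and 825 bases. Of the tested genes, 11.9% and 12.1% are shorter. Those of Tspan7 and Ptprb are long, at 4400 and 9463.5 bases, and those of Plvap lie between, at 1987 bases. Median GC content was 60.64% for Plvap, 53.68% for Hilpda, 45.79% for Tspan7, 49.3% for Ptprb and 43.49% for Sema3c. The deviation of a library from the mean of all libraries correlated with log2 transcript length over genes at 0.199 in hyperoxia 1, and at -0.19 to 0.209 in the other libraries. With GC content it correlated at -0.128 in hyperoxia 1, at 0.215 to 0.253 in normoxia 1, 2 and 3, at 0.246 in hyperoxia 2, at -0.277 in hyperoxia 3 and at -0.366 in normoxia 6. Over the libraries, these GC values and the levels of Plvap, Tspan7 and Hilpda deviated together from the group means (r = 0.468 to 0.502, and 0.867 to 0.898 without hyperoxia 1), and those of Ptprb and Sema3c in the opposite sense (r = -0.799 and -0.761). Whether GC content has a part in these levels was not tested beyond the correction that follows. With a correction for length and GC content in each library, Hilpda was called lower (log2 fold change -1.37, adjusted p = 0.0323 by edgeR) and the other 9 members kept their calls. For Plvap and Tspan7 the corrected log2 fold changes were -0.49 and -0.80. Plvap overlaps Gtpbp3 on the other strand and Lmo2 overlaps 4931422A03Rik, for which 23 to 62 and 0 counts per library were listed. Cd34 overlaps Gm16897 on the other strand, Ptprb overlaps Gm47625 and Gm26495 on its own strand, and Tspan7 overlaps Gm25885 on its own strand. These are overlaps of whole gene spans, introns included, and whether the transcripts share sequence was not tested. The sources used here did not say whether the counting used strand, so whether such overlaps affected the counts is not known.

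Other genes known from general capillary cells were read from a list of 9, of which 8 were tested, 2 called higher and 3 lower, with a median log2 fold change of -0.69 that did not change with Aplnr at its bound. Aplnr, the apelin receptor that marks these cells, was at 14.0 ± 4.57 CPM in normoxia and at 2 counts or fewer in every hyperoxic library, at least 8.68-fold lower against the floor of 3 counts in 1 library. Kit, the receptor of stem cell factor, fell from 76.4 ± 15.8 to 12.4 ± 7.02 CPM (log2 fold change -2.65, SE 0.29, adjusted p = 1.22e-05). Nos3, the endothelial nitric oxide synthase, rose from 18.7 ± 4.96 to 70.9 ± 26.0 CPM (log2 fold change 1.92, SE 0.24, adjusted p = 4.3e-05), and the adhesion receptor gene Adgrl4 rose by 0.83. Tek is also in this list. Without hyperoxia 1, 2 were called higher and 5 lower.

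In the aerocyte list, 13 genes were tested, 2 called higher and 5 lower, with a median log2 fold change of -0.50. Ednrb, the endothelin receptor of aerocytes, fell by 1.89 and Fibin by 1.73, and Nrp1 is in this list too. Apln, the ligand of APLNR, rose from 23.4 ± 5.49 to 67.3 ± 24.3 CPM (log2 fold change 1.52, SE 0.24, adjusted p = 0.000282), and Prx by 0.96. Without hyperoxia 1, 2 were called higher and 8 lower. Whether general capillary and aerocyte genes differed in their response was not tested.

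Of 10 arterial genes, 0 were called higher and 6 lower by the same test (1 and 7 at an unadjusted p under 0.05, 0 and 6 by DESeq2 and without hyperoxia 1, 0 and 7 by limma-voom), with a median log2 fold change of -0.93. Hey1, a target of Notch, fell by 2.33, the connexin gene Gja4 by 2.12, the transcription factor gene Sox17 by 1.17, the ephrin gene Efnb2 by 1.12 and the kinase gene Bmx by 0.92. The calls of Gja4 and Bmx were lost with the replicate block. With the length and GC correction 5 of the 10 were called lower. Of 7 venous genes, 2 were called higher and 3 lower, with a median of 0.01, or -0.28 without hyperoxia 1. The protease gene Prss23 rose by 1.17, and the noradrenaline transporter gene Slc6a2 fell by 1.88, Ephb4 by 1.12 and Vwf by 1.18, though the call of Vwf was lost in 3 alternative fits, with the letter set as a term, with the replicate block and without normoxia 1. Of 7 lymphatic genes, 1 was called higher and 0 lower by edgeR (1 and 1 at an unadjusted p under 0.05 and by DESeq2, 1 and 0 by limma-voom), with a median of 0.07. That gene was the hyaluronan receptor gene Lyve1, which rose from 625 ± 148 to 5508 ± 1791 CPM (log2 fold change 3.14, SE 0.22, adjusted p = 2.16e-07). The lymphatic regulator Prox1 was at 4.57 ± 2.25 and 6.20 ± 2.19 CPM (adjusted p = 0.4).

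**Figure D5:**
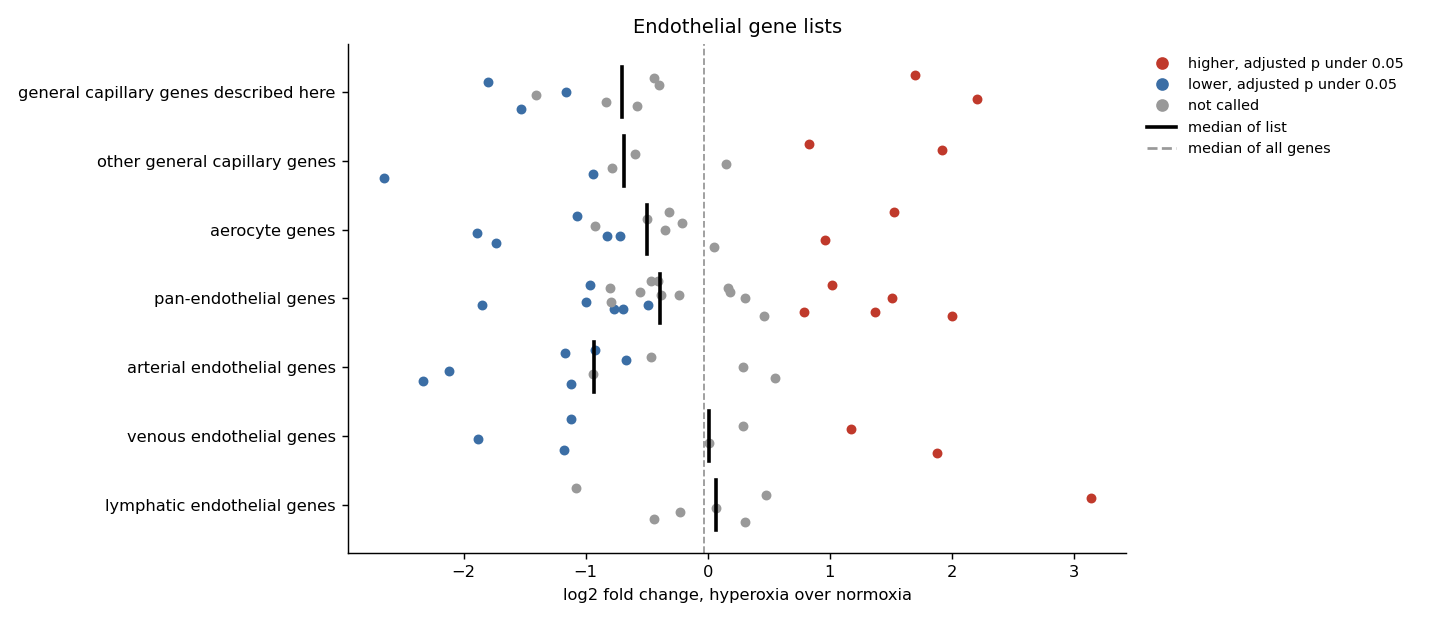
log2 fold change of hyperoxia over normoxia (x axis) of the tested genes of 7 endothelial lists (y axis). Points are genes, red called higher, blue called lower and grey not called, black bars are list medians and the dashed line is the median of all genes at -0.03; Aplnr, at its floor in hyperoxia, is not drawn.

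Markers of other cells moved in the same libraries, and their part in the results above was not tested. Of 10 genes of alveolar type 2 cells, 7 were called lower and 0 higher by edgeR (9 and 0 at an unadjusted p under 0.05, 8 and 0 by DESeq2 and limma-voom), with a median log2 fold change of -1.71. Their summed level was 12980 to 24100 CPM in normoxia and 3446 to 7548 in hyperoxia, and the surfactant gene Sftpc fell by 2.72. Of 10 alveolar type 1 genes, 1 was called higher (Akap5, by 1.20) and 1 lower (Rtkn2, which fell by 0.95), with a median of 0.03 and summed levels of 3644 to 4339 and 4570 to 6020 CPM, or 2482 to 2984 and 1631 to 3229 CPM without Akap5. Of 12 fibroblast genes, 2 were called higher and 4 lower, with sums of 3462 to 4861 and 3652 to 4382 CPM, and Pdgfra rose by 1.19 while Fbln1, Ces1d and Npnt fell, with log2 fold changes of -1.38, -1.47 and -0.75. Of 11 pericyte and smooth muscle genes, 4 were called higher and 1 lower (3 and 0 without hyperoxia 1; the lower call, of Cox4i2, was lost in 19 of the alternative fits and that of Cnn1 in 10), with sums of 408.5 to 491.9 and 519.8 to 878.2 CPM, and Des rose by 0.96. Of 10 leukocyte genes, 4 were called lower and 0 higher, also at an unadjusted p under 0.05 and by DESeq2 and limma-voom, with sums of 516.5 to 753.3 and 285.9 to 627.8 CPM, and the B cell gene Cd79a fell by 1.80. Of 5 genes of blood, mast cells and megakaryocytes, 1 (Ppbp) fell, and the haemoglobin gene Hbb-bs was at 1116 ± 609 and 403 ± 650 CPM (adjusted p = 0.17). Of 11 proliferation genes, 1 (Ccna2) rose, by 0.78, and 0 fell by edgeR (2 at an unadjusted p under 0.05, 1 by DESeq2 and by limma-voom). The calls of Ccna2, Rtkn2 and Npnt were lost in 9, 10 and 5 of the alternative fits.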

How the data were processed

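Lung RNA of 13 samples was read from the 3′ end by Quant-seq. The authors quantified reads with kallisto in BioJupies (build mm10 in the submitters' processing notes), used limma 3.54.2 and deposited whole-number counts per gene symbol without a filter. They also deposited log10 values of CPM plus 1, used here in 1 alternative. All columns belong to the 13 samples.

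Groups came from the sample labels. Counts were tested with edgeR 4.0.16 in R 4.3.3 (TMM, filterByExpr, quasi-likelihood test, Benjamini-Hochberg over 12496 genes, adjusted p under 0.05). log2 CPM values used a prior count of 2. Floors of 3 counts cover counting error only, since molecular identifiers were not used here. The fit was tested on simulated counts over 12357 genes, with 200 genes changed and a dispersion of 0.1 for all. It recovered 55% of genes changed by 1 and 100% changed by 2 on the log2 scale, with 3.73% of calls false. In the simulation no library stood apart or varied with GC content, so these rates need not hold for the measured libraries.

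The members, lists and tests were chosen with earlier results of these data known. All members are named. From each list, at most the 5 called genes with the smallest adjusted p were named, plus known partners of members. Some called list genes are counted but not reported by name here. Other named genes (Podxl, Emcn, G0s2, Vegfa, Pecam1, Prox1, Sdpr, Sftpc, Tspan15, Tspan18, Tspan33, Hbb-bs) were chosen after their values were seen. Correlated genes are the 3 with the highest r among 10454 genes whose mean log2 CPM reached 3. Symbols older than the lists (Ero1l, Ptrf, Sdpr, Prkcdbp, Murc) were matched through RefSeq synonyms. Positions are from GENCODE for GRCm38, and promoter sequences from RefSeq.

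Alternatives were DESeq2 1.42.0, limma-voom, limma 3.58.1 on the deposited values, RLE scaling or library sizes alone, a filter of 10 counts per library or none, a replicate block, a term for the letter set, omission of each library, a log2 fold change limit of 1.5, levels relative to pan-endothelial genes, and, added after the data were seen, a length and GC correction (spline with 5 terms, 11884 genes).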

Additional observations from a re-analysis of the deposited data

Results flagged for a closer look

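Dixon's 95% limit was applied to the 10 members and the pan-endothelial mean, each in 2 groups. In 5 of these 22 sets a library lay farther from the others than the limit, where chance gives about 1.1 for independent sets. The sets share libraries and several vary together, so this count carries no test. The ratio of the gap to the whole range of log2 CPM in hyperoxia was 0.736 for Plvap, 0.657 for Hilpda and 0.746 for Tspan7, and 0.627 for the mean of the pan-endothelial genes. In each of these the lowest library, hyperoxia 1, lay apart, for Hilpda at a count of 0. The ratio was 0.735 for Lmo2, where hyperoxia 5 was the highest of its group at 18.44 CPM, still below the lowest normoxic library at 40.18 CPM.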

How the results depend on the processing

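Cd93, Cd34, Gpihbp1, Lmo2 and Ptprb kept their direction and their call in all 23 alternative fits. Their log2 fold changes ranged from 2.04 to 2.31, 1.59 to 1.81, -1.64 to -1.37, -1.92 to -1.69 and -1.24 to -1.01. Relative to the pan-endothelial genes, the log2 difference for Ptprb was -0.949, against -1.145 without this reference, and the same shift applies to every member. The number of members called lower was 3 to 6 with 1 library left out, the 6 without hyperoxia 1, and 5 with at least 10 counts in every library, where Sema3c (log2 fold change -0.51, adjusted p = 0.0375 by edgeR) and Cxcl12 (-0.48, 0.0364) were called and Hilpda and Plvap were not tested. Hilpda was also called without hyperoxia 2 (-1.72), and Cxcl12 with limma on the deposited values (-0.50). Over all genes, 2819 calls became 488 with the log2 fold change limit of 1.5 and 1344 with the replicate number as a block, 3307 with DESeq2 and 3633 without hyperoxia 1. Deviations of samples with the same replicate number correlated at r of -0.325 to 0.272. Other pairs were not computed as a reference, so whether the numbers pair the samples is not known. With the block 2 members were called higher and 3 lower. Of all calls 52.3% were higher, but 38.8% with limma on the deposited log CPM, whose median log2 fold change over all genes was -0.16 against -0.03, and 61.4% with the length and GC correction, whose median was 0.08. The causes of these differences were not tested. Depth limits Aplnr and Cxcr4, which lie near the floor in hyperoxia.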

Other observations

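For each member, the 3 genes with the most similar deviations from the group means over the 13 libraries were read from 10454 genes. Plvap was followed most closely by Maf1, Glrx5 and Cox6a1 (r = 0.995, 0.991 and 0.989), Tspan7 by Glrx5, Nup85 and Txnip (each 0.994) and Hilpda by Ndufb3, Ndufs3 and Icam1 (0.996, 0.992 and 0.992). Cd93 was followed by Hk2, a glycolytic kinase gene that was called higher in hyperoxia (log2 fold change 0.98), with r of 0.939, or 0.879 without hyperoxia 1. Cd34 was followed by Kank2 (0.859) and by Apln (0.853, with the same value without hyperoxia 1). Cxcl12 was followed by Slc26a9 (0.948) and Ushbp1 (0.94), Sema3c by Smad9 (0.944), Gpihbp1 by Tmed4 (0.96), Ptprb by Rad17 (0.898) and Lmo2 by Clca1 (0.761). These were chosen as the highest of many and carry no test.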
